A study of Saccharomyces cerevisiae with 6 samples.

Results

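The genes described here are 41 assembly factors of the large (60S) ribosomal subunit of the budding yeast Saccharomyces cerevisiae, taken by name from a list and measured as the Affymetrix probe sets that the platform annotation gives to those names. All 41 were found, among 5449 yeast genes measured by the series, and each had 1 probe set. The arrays were 3 labelled gpm1, which stands for a knock-out mutant of the phosphoglycerate mutase gene GPM1, and 3 labelled wild type (WT). Both groups were grown in batch on ethanol and glycerol, and the labels give no strain background and no other allele. Nor do they say whether replicate arrays trace back to separate cultures, so the p-values cover the variation among these 6 samples alone and that variation may be technical.

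Making a 60S subunit takes a long series of steps. Ribosomal RNA copied in the nucleolus is folded, cut and modified together with ribosomal proteins, and assembly factors join and leave in order as the particle moves through the nucleus to the cytoplasm. RNA helicases, GTPases, methyltransferases and scaffold proteins act in the nucleolus, and a few export and release factors act at the end. In yeast the genes for these factors belong to the ribosome biogenesis regulon, known for being transcribed together in growing cells and shut down together in starved or stressed cells, under the target of rapamycin (TOR) and protein kinase A pathways.

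The signal of the deleted gene ran against the labels. GPM1 read 12.51, 12.48 and 11.82 (log2) on the 3 labelled gpm1 arrays, against 5.16, 5.12 and 5.17 on the 3 labelled WT arrays, where it lay under the 95th percentile of background probe sets (6.10). The libraries are therefore named only by their labels, and every direction below is that of the labelled groups and not of the genotype. Values are log2 of the authors' probe set summaries, the base of the log is taken from their range, and differences are labelled gpm1 minus labelled WT. The arrays labelled gpm1 stood apart from each other. The median standard deviation over all genes was 0.248 among them and 0.0484 among the arrays labelled WT. The probe sets for poly-A control transcripts, which are meant to be added to RNA before labelling, averaged 7.14, 6.67 and 6.21 on labelled gpm1 replicates 1, 2 and 3. On the arrays labelled WT they averaged 5.92, 6.22 and 6.22. The means of replicate 3 and of the arrays labelled WT lay near the background percentile of 6.10. Whether the controls were added to these samples was not checked. The ACT1 control probe sets, whose 3′ minus 5′ log2 signal reports on RNA quality, gave 0.65, 0.47 and 0.46, against 0.58, 0.49 and 0.46. All 41 factors had a mean over the 6 arrays above the background percentile.

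The assembly factors had a higher mean on the arrays labelled gpm1 in all 41 cases. A positive difference was found for 52.4% of all genes tested. The median log2 difference of the 41 was 0.75 and their range was 0.38 to 1.22, while the median over all 5449 genes was 0.02. In RNA of whole cultures, more cells with an active gene and more RNA per cell cannot be told apart. A difference of at least 2-fold, a log2 difference of 1, was reached by 8 of the 41 and by 0.569% of all genes. The 3 arrays labelled gpm1 all lay above the 3 labelled WT for 39 of the 41, and for 19.2% of all genes. The exceptions were DBP10 and RPF1. None of the 41 passed the limma test over all genes at an adjusted p of 0.05 (0 higher and 0 lower), where 0.0184% of all genes passed as higher, which is GPM1 alone, and 0.789% passed as lower. Their adjusted p-values ran from 0.187 to 0.264. At an unadjusted p under 0.05, 38 of the 41 were higher, against 12.0% of all genes. An exact test on 1 gene, with 3 arrays against 3, cannot go below p = 0.1.

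The differences came mainly from labelled gpm1 replicates 1 and 2. Against the labelled WT mean, the median log2 deviation of the 41 factors was 1.06 on replicate 1, 1.12 on replicate 2 and 0.19 on replicate 3. Replicate 3 was the lowest of the arrays labelled gpm1 for all 41, and for 40.7% of all genes. On replicate 1, 21 of the 41 were at least 2-fold over the labelled WT mean, where 4.96% of all genes were. On replicate 2 it was 26, where 3.01% of all genes were, and on replicate 3 it was 0, where 0.0184% of all genes were. Replicate 3 still lay above all 3 arrays labelled WT for 39 of the 41, against 42.5% of all genes. The same held for all 41 on replicate 1 and on replicate 2, where 50.3% and 44.3% of all genes did so. On replicate 3 the deviations ran from -0.14 for RPF1 to 0.29 for DBP6. The poly-A controls given above were higher on replicates 1 and 2 as well, and their part in the result was not tested.

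**Figure D1:**
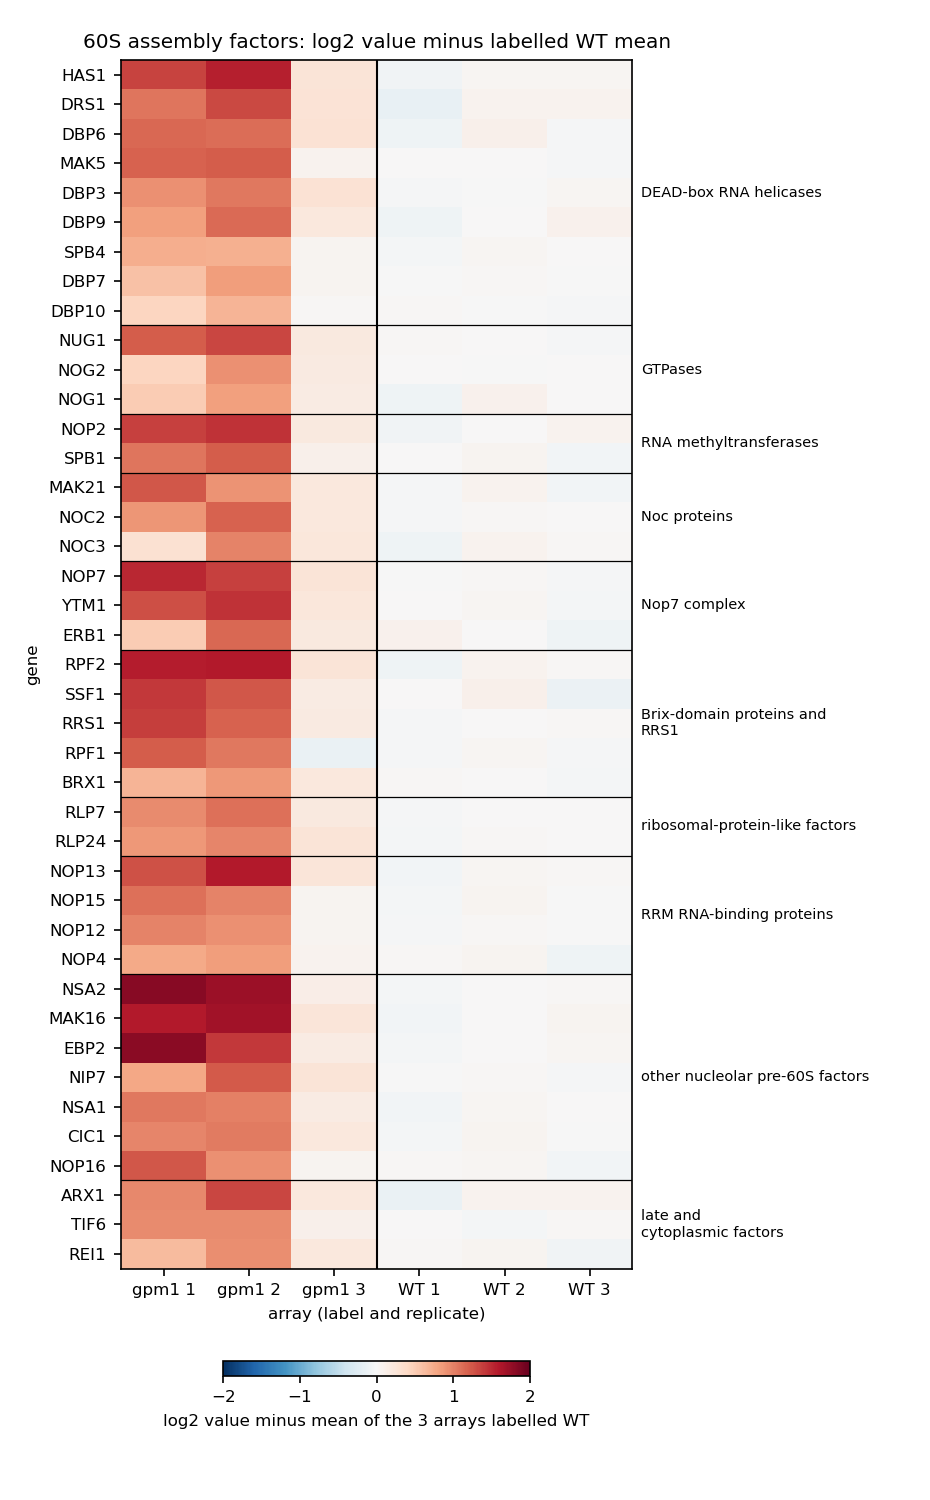
Log2 value minus the mean of the 3 arrays labelled WT for each of the 41 60S assembly factors (rows, grouped by role) on each of the 6 arrays (columns), with red for higher and blue for lower. The columns of labelled gpm1 replicates 1 and 2 are red throughout (medians 1.06 and 1.12), the column of replicate 3 is pale (median 0.19), and the arrays labelled WT are close to 0.

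Within each labelled group the 41 factors differed in how far the arrays spread. The standard deviation of a factor ran from 0.33 to 0.95 among the arrays labelled gpm1, with a median of 0.514, and from 0.0052 to 0.12 among the arrays labelled WT, with a median of 0.0424. The fit estimates a single residual spread for each gene across both groups. Without labelled gpm1 replicate 3, 40 of the 41 passed as higher at an adjusted p of 0.05 and 0 as lower, with a median log2 difference of 1.05, and 26 were at least 2-fold higher. In that fit 21.6% of all genes passed as higher and 3.21% were at least 2-fold higher. NOC3 was the 1 factor that missed, at adjusted p = 0.058. Without replicate 1, 0 of the 41 passed (0.0367% of all genes) and 0 reached 2-fold (0.110%), with a median difference of 0.66. Without replicate 2, 0 of the 41 passed (0.0184%) and 0 reached 2-fold (0.257%), with a median of 0.59. When limma weighted the arrays by their spread, 41 of the 41 passed as higher, where 9.34% of all genes did, and 14 reached 2-fold, where 1.36% did. With an offset of 32 added before the log, 5 reached 2-fold, where 0.385% of all genes did.

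The DEAD-box RNA helicases, which use ATP to open RNA helices and so drive the refolding of the precursor, had 9 members, with a median log2 difference of 0.75 and 8 higher without overlap between the groups (19.2% of all genes). HAS1 (YMR290C), which acts on precursors of both subunits, read 9.88, 10.07 and 8.78 on the 3 labelled gpm1 arrays, against 8.45, 8.56 and 8.56 on the 3 labelled WT arrays. Labelled gpm1 replicates 1 and 2 were far above every array labelled WT, and replicate 3 was above them by a smaller step. The difference was 1.06 (SE 0.33, limma adjusted p = 0.196), a fold of 2.08. DBP10, which acts on the future peptidyl transferase centre, had the lowest difference of the 41, and its values were 9.36, 9.61 and 8.95 on the 3 labelled gpm1 arrays, against 8.95, 8.92 and 8.91 on the 3 labelled WT arrays. Its groups overlapped, as replicate 3 lay between arrays labelled WT. The difference was 0.38 (SE 0.17, limma adjusted p = 0.243), with a 95% interval from -0.04 to 0.79. Between these stood DRS1 at 0.89 and DBP6 at 0.85. DBP6 works with the Urb1 complex in the earliest particles. MAK5 was at 0.82, DBP3, needed for efficient early cleavage of the precursor, at 0.75, DBP9 at 0.72, SPB4 at 0.50 and DBP7 at 0.49. DBP3 had the smallest p of the 41 factors, at adjusted p = 0.187.

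The GTPases NUG1, NOG1 and NOG2, which are placed on the precursor as checkpoints, had a median log2 difference of 0.51, and all 3 were higher without overlap (19.2% of all genes). NUG1 (YER006W) read 10.01, 10.15 and 9.00 on the 3 labelled gpm1 arrays, against 8.83, 8.81 and 8.78 on the 3 labelled WT arrays. Labelled gpm1 replicates 1 and 2 were high and replicate 3 was only slightly above the arrays labelled WT. The difference was 0.91 (SE 0.30, limma adjusted p = 0.196). NOG1 (YPL093W), which threads part of itself into the exit tunnel of the particle, read 9.33, 9.64 and 8.98 on the 3 labelled gpm1 arrays, against 8.73, 8.90 and 8.83 on the 3 labelled WT arrays. All 3 arrays labelled gpm1 were above all 3 labelled WT, with replicate 3 nearest to them. Its difference was 0.49 (SE 0.17, limma adjusted p = 0.204). NOG2, which occupies the site of the export adaptor Nmd3 until late in nuclear assembly, stood at 0.51. On labelled gpm1 replicates 1 and 2 it had 9.70 and 10.18, so that replicate 2 was clearly the higher.

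The RNA methyltransferases NOP2 and SPB1 modify 25S rRNA, NOP2 by a methyl group on a cytosine base and SPB1 by one on a ribose. NOP2 (YNL061W) read 10.65, 10.73 and 9.47 on the 3 labelled gpm1 arrays, against 9.21, 9.29 and 9.35 on the 3 labelled WT arrays. Its groups did not overlap, and replicate 3 lay close to the arrays labelled WT. The difference was 1.01 (SE 0.34, limma adjusted p = 0.199), a fold of 2.01. SPB1 (YCL054W) read 9.30, 9.44 and 8.32 on the 3 labelled gpm1 arrays, against 8.23, 8.27 and 8.16 on the 3 labelled WT arrays. It had the same layout, with replicates 1 and 2 well above the rest. Its difference was 0.80 (SE 0.29, limma adjusted p = 0.206).

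The Noc proteins form pairs in which NOC2 joins MAK21 (also called Noc1) in early particles and NOC3 in later ones. MAK21 (YDR060W) read 10.30, 9.96 and 9.26 on the 3 labelled gpm1 arrays, against 9.04, 9.13 and 9.01 on the 3 labelled WT arrays. Replicate 1 was the highest array for this gene, and the groups did not overlap. The difference was 0.78 (SE 0.26, limma adjusted p = 0.196). NOC3 (YLR002C) read 7.89, 8.57 and 7.82 on the 3 labelled gpm1 arrays, against 7.50, 7.65 and 7.62 on the 3 labelled WT arrays. Here replicate 2 stood alone, and replicates 1 and 3 were both nearer to the arrays labelled WT. The difference was 0.50 (SE 0.21, limma adjusted p = 0.223). NOC2, the shared partner, stood at 0.76 (SE 0.24). The gap between replicates 1 and 2 was wider for NOC3 than for any other of the 41 factors, at -0.68 for replicate 1 minus replicate 2. ERB1 came next at -0.64, and EBP2 had the widest gap the other way at 0.39. Replicate 2 was the higher for 27 factors and replicate 1 for 14.

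NOP7, ERB1 and YTM1 form a complex of their own in the nucleolar particle, from which the giant ATPase Rea1 strips Ytm1. NOP7 (YGR103W) read 9.96, 9.82 and 8.70 on the 3 labelled gpm1 arrays, against 8.44, 8.47 and 8.42 on the 3 labelled WT arrays. Labelled gpm1 replicates 1 and 2 were far above the arrays labelled WT, and replicate 3 was just above them. The difference was 1.05 (SE 0.33, limma adjusted p = 0.196), a fold of 2.06. ERB1 (YMR049C) read 9.06, 9.70 and 8.74 on the 3 labelled gpm1 arrays, against 8.63, 8.56 and 8.46 on the 3 labelled WT arrays. Replicate 2 was high, and replicates 1 and 3 were above the arrays labelled WT by less. Its difference was 0.62 (SE 0.24, limma adjusted p = 0.216). YTM1 stood at 0.98 (SE 0.31). All 3 genes were higher without overlap (19.2% of all genes).

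The Brix-domain proteins BRX1, RPF1, RPF2 and SSF1 bind rRNA or proteins bound to it, and RRS1 works with RPF2 to bring in the 5S ribonucleoprotein. RPF2 (YKR081C) read 10.52, 10.53 and 9.21 on the 3 labelled gpm1 arrays, against 8.86, 9.02 and 8.97 on the 3 labelled WT arrays. Replicates 1 and 2 were nearly equal and high, and replicate 3 was slightly above the arrays labelled WT. The difference was 1.14 (SE 0.36, limma adjusted p = 0.196), a fold of 2.20. Its partner RRS1 stood at 0.91 (SE 0.30). BRX1 (YOL077C), which had the lowest difference here, read 10.27, 10.46 and 9.81 on the 3 labelled gpm1 arrays, against 9.62, 9.60 and 9.56 on the 3 labelled WT arrays. Its groups did not overlap, and its arrays labelled gpm1 lay closer together than those of RPF2. The difference was 0.58 (SE 0.17, limma adjusted p = 0.196). RPF1 (YHR088W) read 9.69, 9.54 and 8.34 on the 3 labelled gpm1 arrays, against 8.47, 8.52 and 8.47 on the 3 labelled WT arrays. Replicate 3 lay below all 3 arrays labelled WT, which was found for no other factor. The difference was 0.71 (SE 0.35, limma adjusted p = 0.264), the largest p of the 41. SSF1, which holds back cleavage in the spacer next to 25S rRNA, stood at 0.94 (SE 0.33). Its near-identical paralogue SSF2, which is not among the 41, stood at 0.53 (SE 0.16), and the 2 probe sets may share signal, since probe sequences were not used here.

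RLP7 and RLP24 resemble ribosomal proteins, and RLP24 holds the place of ribosomal protein L24 until the cytoplasm. RLP7 (YNL002C) read 10.17, 10.33 and 9.42 on the 3 labelled gpm1 arrays, against 9.21, 9.23 and 9.24 on the 3 labelled WT arrays. RLP24 (YLR009W) read 9.98, 10.10 and 9.37 on the 3 labelled gpm1 arrays, against 9.08, 9.14 and 9.12 on the 3 labelled WT arrays. In both genes replicate 3 was above every array labelled WT and well below the other arrays labelled gpm1. The differences were 0.75 (SE 0.24, limma adjusted p = 0.196) and 0.70 (SE 0.20, limma adjusted p = 0.191).

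NOP4, NOP12, NOP13 and NOP15 bind RNA through RNA recognition motifs. NOP13 (YNL175C) read 9.45, 9.75 and 8.42 on the 3 labelled gpm1 arrays, against 8.11, 8.21 and 8.19 on the 3 labelled WT arrays. Replicate 2 was the highest array, and all arrays labelled gpm1 were above those labelled WT. The difference was 1.03 (SE 0.33, limma adjusted p = 0.196), a fold of 2.05. NOP4 (YPL043W) read 9.54, 9.62 and 8.84 on the 3 labelled gpm1 arrays, against 8.81, 8.84 and 8.70 on the 3 labelled WT arrays. Replicate 3 exceeded the highest array labelled WT by very little. The difference was 0.56 (SE 0.21, limma adjusted p = 0.212). NOP15, which binds the spacer between 5.8S and 25S rRNA, stood at 0.72 and NOP12 at 0.65. For NOP15, replicate 3 and the highest array labelled WT were both at 9.21, with replicate 3 slightly above.

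Of the 7 other nucleolar factors, NSA2, MAK16 and EBP2 reached 2-fold (0.569% of all genes), and all 7 were higher without overlap (19.2% of all genes). NSA2 (YER126C), which joins late in the nucleolus, read 10.92, 10.80 and 9.22 on the 3 labelled gpm1 arrays, against 9.06, 9.10 and 9.12 on the 3 labelled WT arrays. Replicates 1 and 2 were 1.83 and 1.71 above the labelled WT mean, and replicate 3 was near it. The difference, the largest of the 41, was 1.22 (SE 0.44, limma adjusted p = 0.206), a fold of 2.33, with a 95% interval from 0.15 to 2.29. MAK16 stood at 1.17 (SE 0.38) with a fold of 2.25, and EBP2 at 1.12 (SE 0.40) with a fold of 2.18. MAK16, NSA1, RPF1 and Rrp1 sit together as a module on the particle. NSA1 stood at 0.74 and RPF1 at 0.71, beside 1.18 for RRP1, which is not among the 41. NOP16 (YER002W), the lowest of these 7, read 9.67, 9.33 and 8.48 on the 3 labelled gpm1 arrays, against 8.43, 8.45 and 8.36 on the 3 labelled WT arrays. Replicate 1 was the highest, and replicate 3 exceeded the arrays labelled WT by little. The difference was 0.74 (SE 0.29, limma adjusted p = 0.218). NIP7 stood at 0.75 and CIC1, which sits on the spacer next to 25S rRNA, at 0.74.

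The late factors TIF6, ARX1 and REI1 leave the particle in the cytoplasm. TIF6 keeps the 60S subunit from joining 40S too early, ARX1 helps its export, and REI1 helps to release ARX1. ARX1 (YDR101C) read 9.28, 9.65 and 8.52 on the 3 labelled gpm1 arrays, against 8.18, 8.38 and 8.38 on the 3 labelled WT arrays. Replicate 2 was the highest array, and the groups did not overlap. The difference was 0.84 (SE 0.28, limma adjusted p = 0.199). REI1 (YBR267W) read 8.76, 9.06 and 8.34 on the 3 labelled gpm1 arrays, against 8.14, 8.18 and 8.05 on the 3 labelled WT arrays. All arrays labelled gpm1 were above those labelled WT, with a smaller spread than for ARX1. The difference was 0.60 (SE 0.18, limma adjusted p = 0.196). TIF6 stood at 0.66 (SE 0.24). The 3 late factors thus lay inside the range of the other 38 factors.

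**Figure D2:**
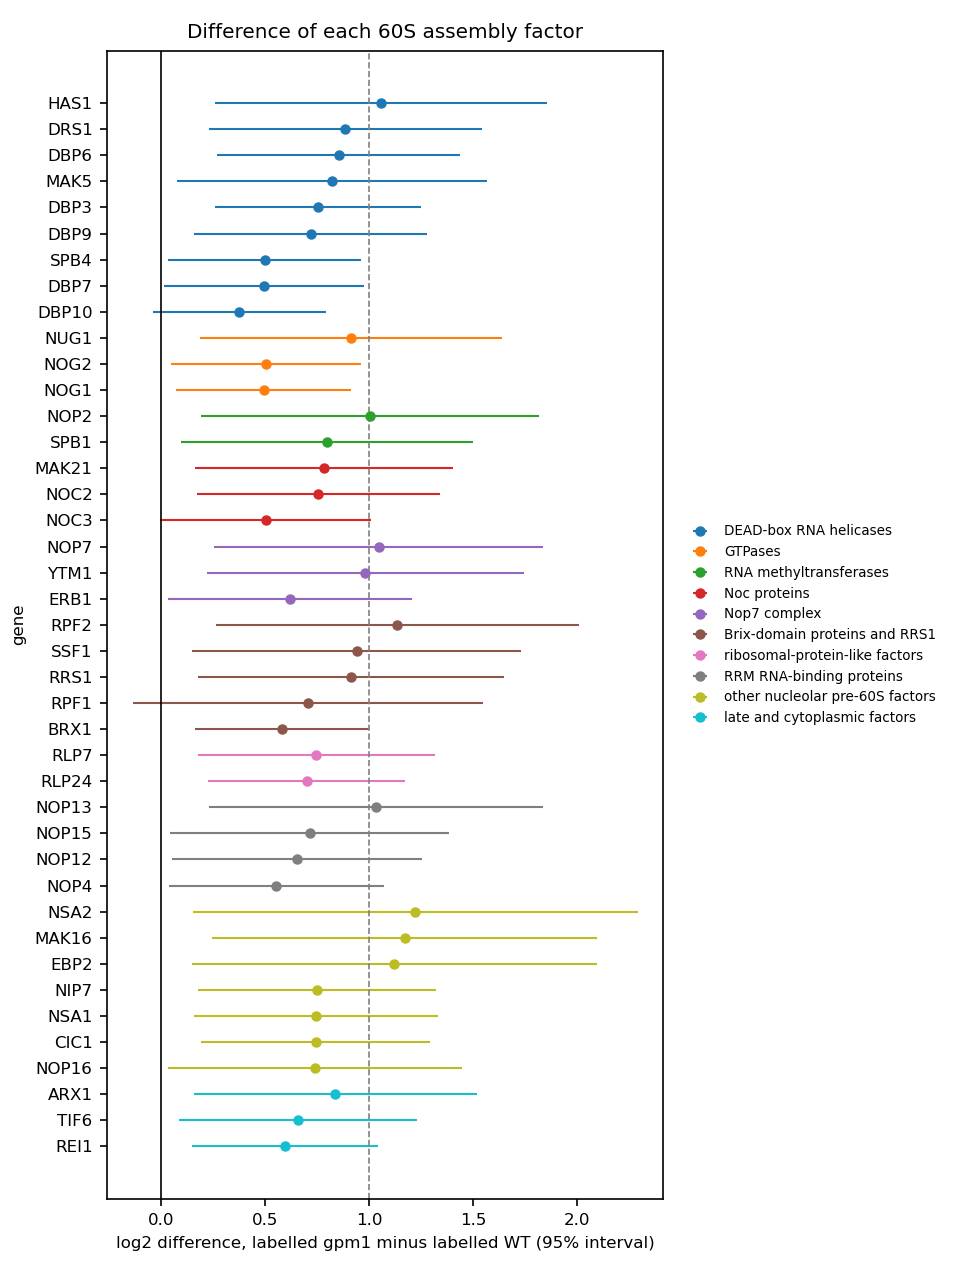
Log2 difference, labelled gpm1 minus labelled WT, of each of the 41 factors (points, coloured by role) with the 95% interval of the limma fit (bars). The solid line marks 0 and the dashed line a 2-fold difference. All 41 points lie right of 0, between 0.38 and 1.22. Before adjustment for the number of genes, 38 intervals lie wholly above 0, as do those of 652 of all 5449 genes.

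Genes that act beside these 41 were described by lists, which like the 41 were drawn up with earlier results of these data known. Of 51 other 60S assembly factors 48 had a positive difference, 0 passed the threshold in either direction, and 36 (70.6%) were higher without overlap, with a median of 0.61. Over all genes 52.4% were positive, 0.0184% passed as higher and 0.789% as lower, and 19.2% were higher without overlap. The highest were RRP1 at 1.18 (SE 0.38, adjusted p = 0.196), the proline isomerase gene FPR4 at 1.17 (SE 0.40, adjusted p = 0.201) and the helicase gene PRP43 at 1.06 (SE 0.39, adjusted p = 0.206). The lowest were REA1 at -0.58 (SE 0.31, adjusted p = 0.294), AFG2 at -0.10 (SE 0.13, adjusted p = 0.644) and JJJ1 at -0.09 (SE 0.12, adjusted p = 0.631). Both AFG2 and JJJ1 act in the cytoplasm, AFG2 as the ATPase that removes Rlp24 and JJJ1 as a co-chaperone in the release of Arx1. REA1 (YLR106C) read 8.71, 9.21 and 10.01 on the 3 labelled gpm1 arrays, against 9.84, 9.89 and 9.94 on the 3 labelled WT arrays. Here replicate 3 was the highest of the 6 arrays, and replicates 1 and 2 were the lowest.

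Of 63 assembly factors of the small (40S) subunit 61 had a positive difference, 0 passed in either direction, and 50 (79.4%) were higher without overlap (19.2% of all genes), with a median of 0.71. The highest was BFR2 at 1.38 (SE 0.45, adjusted p = 0.196) and the lowest UTP20 at -0.48 (SE 0.39, adjusted p = 0.452). Without labelled gpm1 replicate 1 UTP20 stood at -0.013. Of 15 genes for RNA polymerase I, which makes the rRNA precursor, and its initiation factors 14 had a positive difference (52.4% of all genes did). In either direction 0 passed, where 0.0184% of all genes passed as higher and 0.789% as lower. Of these 15 genes 10 (66.7%) were higher without overlap (19.2% of all genes), with a median difference of 0.42. They ran from the initiation factor gene RRN5 at -0.07 (SE 0.08, adjusted p = 0.588) to the subunit gene RPA12 at 0.90 (SE 0.31, adjusted p = 0.201). The 127 cytosolic ribosomal protein genes, whose products the assembly factors handle, had a median of 0.04, with 0 past the threshold. Of these, 81 (63.8%) were positive and 31 (24.4%) were higher without overlap, near the 52.4% and 19.2% of all genes. The 127 ran from RPL22B at -1.33 (SE 0.64) to RPS28A at 0.40 (SE 0.13). At least 2-fold lower were 3 of them, against 114 of all 5449 genes. Probe sets of paralogues may share signal here too, as for SSF1 and SSF2. Differences between lists were not tested.

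**Figure D3:**
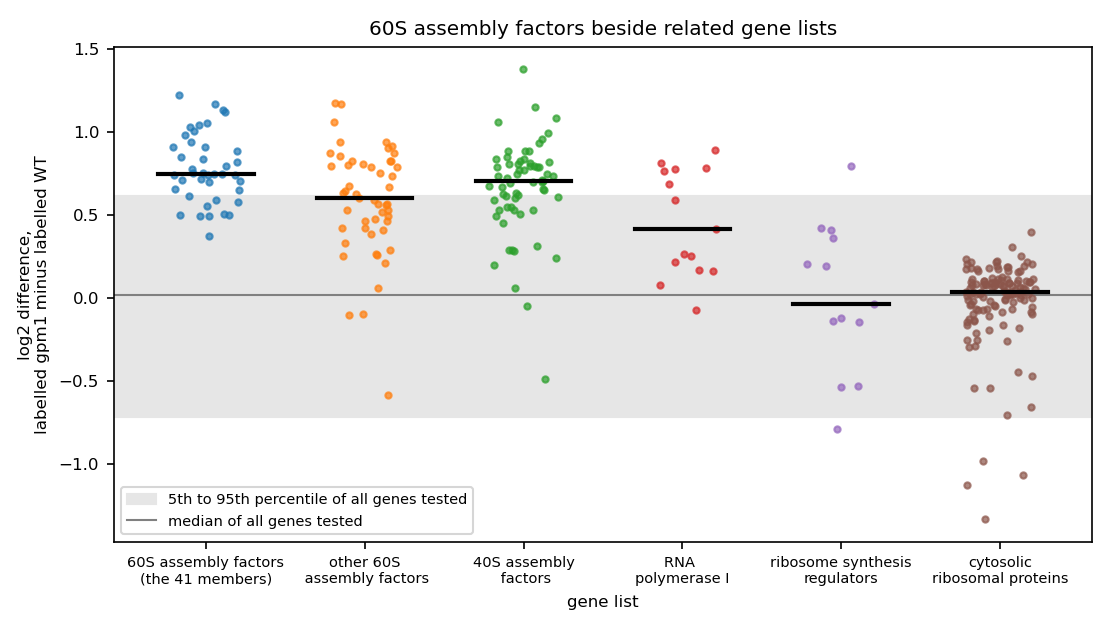
Log2 difference, labelled gpm1 minus labelled WT, of each gene (points) in the 41 60S assembly factors and in 5 related lists, with the list median (black bar) and the median and 5th to 95th percentile of all genes tested (grey line and band, -0.71 to 0.62). The medians of the 41 factors (0.75), the other 60S factors (0.61) and the 40S factors (0.71) lie above that of the ribosomal proteins (0.04).

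Regulators of ribosome synthesis, among them some of ribosomal protein genes, were measured by 13 genes. Of these, 6 had a positive difference (52.4% of all genes did), and the median was -0.03. In either direction 0 passed, where 0.0184% of all genes passed as higher and 0.789% as lower. Without overlap 2 were higher and 3 were lower, against 1046 and 839 of all 5449 genes. SFP1, the transcription activator, stood at -0.14 (SE 0.12). Of the repressors, TOD6 (YBL054W) read 9.30, 9.58 and 8.30 on the 3 labelled gpm1 arrays, against 8.20, 8.31 and 8.29 on the 3 labelled WT arrays. Replicates 1 and 2 were high, and replicate 3 was among the arrays labelled WT. Its difference was 0.80 (SE 0.32, limma adjusted p = 0.219). Its paralogue DOT6 stood at -0.14 (SE 0.13) and STB3 at 0.41 (SE 0.20). SCH9, the kinase downstream of TOR that acts on these repressors, stood at 0.37 (SE 0.18). The TOR kinase genes TOR1 and TOR2 stood at -0.53 (SE 0.29) and -0.79 (SE 0.28), with the TOR2 values 7.33, 7.81 and 8.48 on the 3 labelled gpm1 arrays, against 8.69, 8.61 and 8.68 on the 3 labelled WT arrays. Every array labelled gpm1 was below every array labelled WT for TOR2, and replicate 3 was the nearest to them. TAP42, for a phosphatase regulator of the TOR pathway, stood at 0.42 (SE 0.23). FHL1 and IFH1, which act on ribosomal protein genes, stood at -0.12 (SE 0.09) and 0.21 (SE 0.10), and their corepressor CRF1 at -0.53 (SE 0.10, limma adjusted p = 0.092). CRF1 (YDR223W) read 5.78, 5.64 and 5.88 on the 3 labelled gpm1 arrays, against 6.31, 6.22 and 6.37 on the 3 labelled WT arrays, and its labelled gpm1 values were under the background percentile of 6.10. RPD3, for a histone deacetylase, stood at 0.20 (SE 0.10) and MRS6, whose product binds Sfp1, at -0.03 (SE 0.15).

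Genes of ribosome synthesis often lie side by side in the yeast genome. In the R64 gene order, used for adjacency only, 5 of the 41 factors (12.2%) had a neighbour in the assembly factor or RNA polymerase I lists, against 5.61% of 6002 coding genes. The pairs were NOG2 with ESF2, NOC3 with CMS1, SSF1 with RRP3, NSA2 with LCP5, all 4 neighbours being 40S factors, and RRS1 with UAF30 of RNA polymerase I. The neighbours stood at 0.81, 0.79, 0.71, 0.63 and 0.42 in that order, with limma adjusted p of 0.206, 0.215, 0.204, 0.211 and 0.220. The labelled groups overlapped for LCP5 and UAF30. These neighbours come from lists drawn up with earlier results of these data known. The 69 measured neighbours that were neither in these lists nor ribosomal protein genes had a median of 0.07. They ran from -1.77 for RTC3 beside RPF1 to 0.82 for YNL108C beside NOP15. Of these, 17 (24.6%) were higher without overlap, close to the 19.2% of all genes. Among them, and named after their values were seen, were GCD10 beside NOP2 at 0.77 (SE 0.24), GAR1 beside RPF1 at 0.74 (SE 0.24) and PUS1 beside NIP7 at 0.68 (SE 0.24), which encode a tRNA methyltransferase subunit, a protein of pseudouridylation guide particles and a pseudouridine synthase.

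**Figure D4:**
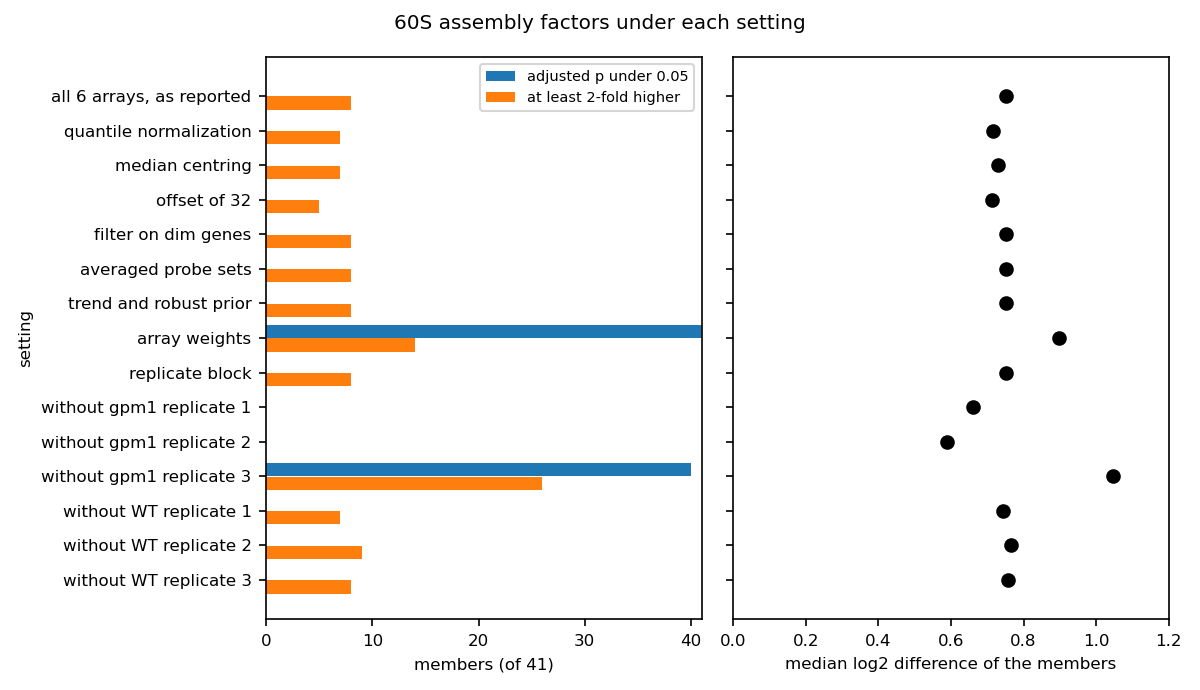
Number of the 41 factors past an adjusted p of 0.05 as higher and number at least 2-fold higher (bars, left) and median log2 difference of the 41 (points, right) with all 6 arrays and under each alternative setting. The median stays between 0.59 and 1.05. Members pass the threshold only with array weights (41) and without labelled gpm1 replicate 3 (40). In those fits 9.34% and 21.6% of all genes pass as higher.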

How the data were processed

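Total RNA of 6 yeast samples was amplified from the 3′ end, labelled with biotin and read on 1-colour Affymetrix arrays, per the labels' protocols. Per the submitters' processing notes, PLIER made the probe set summaries. The values the authors deposited were read as log2, judged by their range. No source used here gives the PLIER settings, an offset or the scaling between arrays, and an offset would make folds of dim genes smaller. Of 10928 probe sets, 5498 had a gene ID in the S. cerevisiae R64 table, and the one with the highest mean was kept for each of 5449 genes. Listed probe sets outside that table (1746) gave the background level. The comparison was limma 3.58.1 in R 4.3.3 (lmFit and eBayes, two-sided, Benjamini-Hochberg over the 5449 genes, threshold 0.05). It was tried on simulated data that gave each gene the same spread in both groups. That trial does not cover the wider spread among the arrays labelled gpm1. Plots used matplotlib 3.10.9 in Python 3.11.15. The 3 arrays per group limit the precision.

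All 41 members could be named. Values on every array were given for the highest and lowest difference of each role. The 3 highest and 3 lowest of the other 60S list, the highest and lowest of the 40S and RNA polymerase I lists and all regulators were named too. The members and lists were chosen with earlier results of these data known. Some array values outside that rule (RPF1, NOG2, NOP15, REA1, TOD6, TOR2 and CRF1) were picked after they were seen. Alternatives were quantile normalization, median centring, an offset of 32, leaving out the dimmest 20% of genes, averaging probe sets, a trend and robust prior, array weights, the replicate number as a block, and leaving out each array.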

Additional observations from a re-analysis of the deposited data

How the results depend on the processing

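All 41 factors kept a positive difference under every alternative run, and their median log2 difference stayed between 0.59 and 1.05. The count higher without overlap stayed between 39 and 41, while the share of all genes ran from 18.2% with median centring to 35.1% without labelled gpm1 replicate 3. The count past the adjusted p was 0 except with array weights and with 1 array left out. With array weights it was 41 (9.34% of all genes passed as higher). With 1 array left out it ran from 0 to 40, with 40 without labelled gpm1 replicate 3 (21.6%). The weighted fit did not reach its convergence tolerance, and the cause of its count was not tested. It gave labelled gpm1 replicates 1, 2 and 3 weights of 0.14, 0.42 and 0.13, against 5.20, 6.83 and 3.58 for the arrays labelled WT. The count at least 2-fold higher was 5 with an offset of 32 (0.385% of all genes), which by construction shrinks folds, and 14 with array weights (1.36%). It ran from 0 to 26 with 1 array left out, with 26 without labelled gpm1 replicate 3 (3.21%) and 0 without replicate 1 (0.110%) or replicate 2 (0.257%). Over all genes 44 passed, against 1009 with array weights and 11 to 2240 with 1 array left out. Of the other genes named, MRS6 turned to 0.033 with array weights, and 3 turned positive without labelled gpm1 replicate 1. With 1 array left out MRS6 ran from -0.124 to 0.120, AFG2 from -0.212 to 0.0195 and JJJ1 from -0.156 to 0.00095, while UTP20 shrank to -0.013 without labelled gpm1 replicate 1. Of these 23 genes, 1 came to pass with the trend and robust prior (CRF1, limma adjusted p = 0.043). With array weights 10 did, among them CRF1, TOD6, TOR1, TOR2 and REA1, and without labelled gpm1 replicate 3 it was 15. In those fits 56, 1009 and 2240 of all 5449 genes passed, in that order. Arrays of the same replicate number did not deviate together (correlations of 0.05, 0.02 and -0.13 over 5449 genes). With 3 arrays per group this check cannot exclude that the numbers pair them. With the replicate block 0 of the 41 passed and the count over all genes was 31. All 41 lay above the background level, and the number of arrays limits their precision.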

Other observations

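The array carries control probe sets for the RNA products that these factors mature. The amplification primes from poly-A, so their signal need not follow the amount of rRNA. The 5.8S rRNA probe set read 8.41, 8.42 and 8.65 on the 3 labelled gpm1 arrays, against 8.80, 9.03 and 8.90 on the 3 labelled WT arrays, without overlap. The 3′ probe set of 25S rRNA was 11.66, 11.43 and 11.85, against 12.04, 11.90 and 11.97, also without overlap. Of all 5449 genes, 839 were lower without overlap. The 5′ probe set of 25S rRNA was 11.70, 11.67 and 11.58, against 11.35, 11.41 and 11.70, with overlap. The middle probe set of 25S rRNA was 8.71, 9.22 and 9.07, against 8.87, 8.92 and 9.72, with overlap. These probe sets were in no test.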
